A study of Rattus norvegicus with 24 samples.

Results

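The microglia and innate immune genes examined here were 35 gene symbols chosen by name: receptors, transcription factors, complement and lysosomal genes of microglia, the resident macrophages of the brain, together with sensors and cytokines of innate immunity. Of these, 33 matched 1 row each among the 23950 gene rows, and 2 (Itgam and Mpeg1) matched no row and were not analysed. Their levels were read in the nucleus accumbens (NAc), a striatal region of the reward pathway, of 24 Sprague Dawley rat pups at postnatal day 14 (P14), 4 libraries in each of 6 groups. In the IUO groups (in utero oxycodone, oxy), F0 dams were given oxy by mouth from before mating through gestation until weaning, at 10 mg/kg/day rising to 15 mg/kg/day. In the PNO groups (postnatal exposure), F0 dams were given oxy at 15 mg/kg/day from the birth of the pups until weaning, and SAL marks the saline groups. F1 pups were the offspring of these dams. F2 pups were bred from F1 females that had received no dose themselves, with males from outside the experiment. The pups were males or females taken at random, the sex of each library was not analysed here, and no source used here states whether the pups of a group were littermates, so p-values measure the spread between these pups only.

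Microglia survey the brain with motile processes, and in health they carry a set of surface receptors, often called homeostatic, that respond to signals from neurons and other cells. Csf1r, the receptor for colony stimulating factor 1, keeps microglia alive, Cx3cr1 binds fractalkine from neurons, and P2ry12 senses extracellular ADP and ATP. During the postnatal weeks microglia also tag synapses with complement and clear them, and when challenged they lower homeostatic receptors and raise phagocytic, complement and cytokine genes. The transcription factor PU.1, made from Spi1, drives much of this program through sites with a GAGGAA core.

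Promoters are shown for 5 of the genes the results turn on, so that the motif of this regulator can be set beside their levels: Csf1r and Cx3cr1 among the receptors, and C1qa, C1qb and Laptm5, whose levels moved most closely together. The RefSeq table (build GRCr8) held a promoter for 23 of the 33 genes, P2ry12 and Selplg not among them. Each line gives the 250 bases before the start of transcription, 5′ to 3′ on the gene's strand, with GAGGAA on either strand (read as TTCCTC on the other) in capitals.
Csf1r: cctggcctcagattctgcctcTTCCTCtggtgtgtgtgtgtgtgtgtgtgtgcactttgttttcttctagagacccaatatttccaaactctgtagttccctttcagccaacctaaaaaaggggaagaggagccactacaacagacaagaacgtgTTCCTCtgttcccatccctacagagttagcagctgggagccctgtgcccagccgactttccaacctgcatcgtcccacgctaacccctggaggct
Cx3cr1: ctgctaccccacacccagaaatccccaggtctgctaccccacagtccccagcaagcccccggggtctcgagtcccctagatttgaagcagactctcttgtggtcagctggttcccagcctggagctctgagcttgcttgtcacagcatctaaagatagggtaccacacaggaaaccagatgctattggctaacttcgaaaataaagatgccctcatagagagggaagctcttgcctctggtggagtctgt
C1qa: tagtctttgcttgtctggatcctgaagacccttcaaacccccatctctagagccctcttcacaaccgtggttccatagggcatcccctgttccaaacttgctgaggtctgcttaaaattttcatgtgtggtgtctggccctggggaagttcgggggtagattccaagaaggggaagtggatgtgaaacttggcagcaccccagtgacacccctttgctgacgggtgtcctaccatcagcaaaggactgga
C1qb: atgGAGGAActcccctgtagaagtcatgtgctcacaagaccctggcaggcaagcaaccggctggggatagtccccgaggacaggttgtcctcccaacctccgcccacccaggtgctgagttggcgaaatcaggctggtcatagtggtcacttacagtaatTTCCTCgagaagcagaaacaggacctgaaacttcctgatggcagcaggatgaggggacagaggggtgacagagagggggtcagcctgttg
Laptm5: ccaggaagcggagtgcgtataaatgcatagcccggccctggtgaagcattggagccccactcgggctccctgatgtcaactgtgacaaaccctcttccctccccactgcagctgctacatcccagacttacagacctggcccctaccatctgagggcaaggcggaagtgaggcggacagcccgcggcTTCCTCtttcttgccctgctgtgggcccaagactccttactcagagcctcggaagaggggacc

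The Csf1r window lies at chr18:56834129-56834378 (plus strand) and the Cx3cr1 window at chr8:128677067-128677316 (minus strand). The C1qa and C1qb windows lie near each other at chr5:154419934-154420183 (minus strand) and chr5:154407828-154408077 (minus strand), and that of Laptm5 at chr5:148371630-148371879 (plus strand). GAGGAA was found in 14 of 23 member promoters (60.9%), against 23.3% of all 33469 promoters in the table. The longer form GAGGAAGT, which contains it, was found in 2 of 23, Cd53 and Ctss, against 2.04% of all. TATAAA was found on either strand in 6 of 23 (26.1%), against 12.9% of all. The Csf1r and C1qb windows held 2 copies of GAGGAA each, that of Laptm5 held 1, and those of Cx3cr1 and C1qa held none. These matches describe letters and not bound sites, and the motifs were picked with the gene list known.

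Levels are given in FPKM (fragments mapped, scaled to transcript length and library total), a unit per length that lets genes be compared within a library. The complement genes C1qb and C1qa were the highest members, with means over the 24 libraries of 46.8 ± 11.1 (SD, n = 24) and 40.7 ± 10.4 FPKM. Their products form, with that of C1qc (23.9 ± 4.99), the recognition unit of the classical complement pathway, and in brain they come mainly from microglia. Tyrobp, the signalling partner of Trem2, had a mean of 26.6 ± 7.19, Csf1r of 24.7 ± 3.18 and Cx3cr1 of 19.7 ± 5.96 FPKM. Then came the cysteine protease gene Ctss (15.8), the actin-binding Aif1 (15.2), the lysosomal Laptm5 (12.1), P2ry12 (11.7) and the adhesion ligand Selplg (9.78). In all, 25 of the 33 members had a mean FPKM of at least 1, as did 57.1% of all genes. The 8 members below were Tlr7, Csf3r, Cd14, Ptprc, C3, Tlr4, Tnf and Il1b. Of the 32 pairs of neighbours in this order, only 5 differed by more than the SD of their difference within a library: C1qb over C1qa, C1qa over Tyrobp, Selplg over Gpr34, Tlr2 over Tlr7 and Ptprc over C3.

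**Figure D1:**
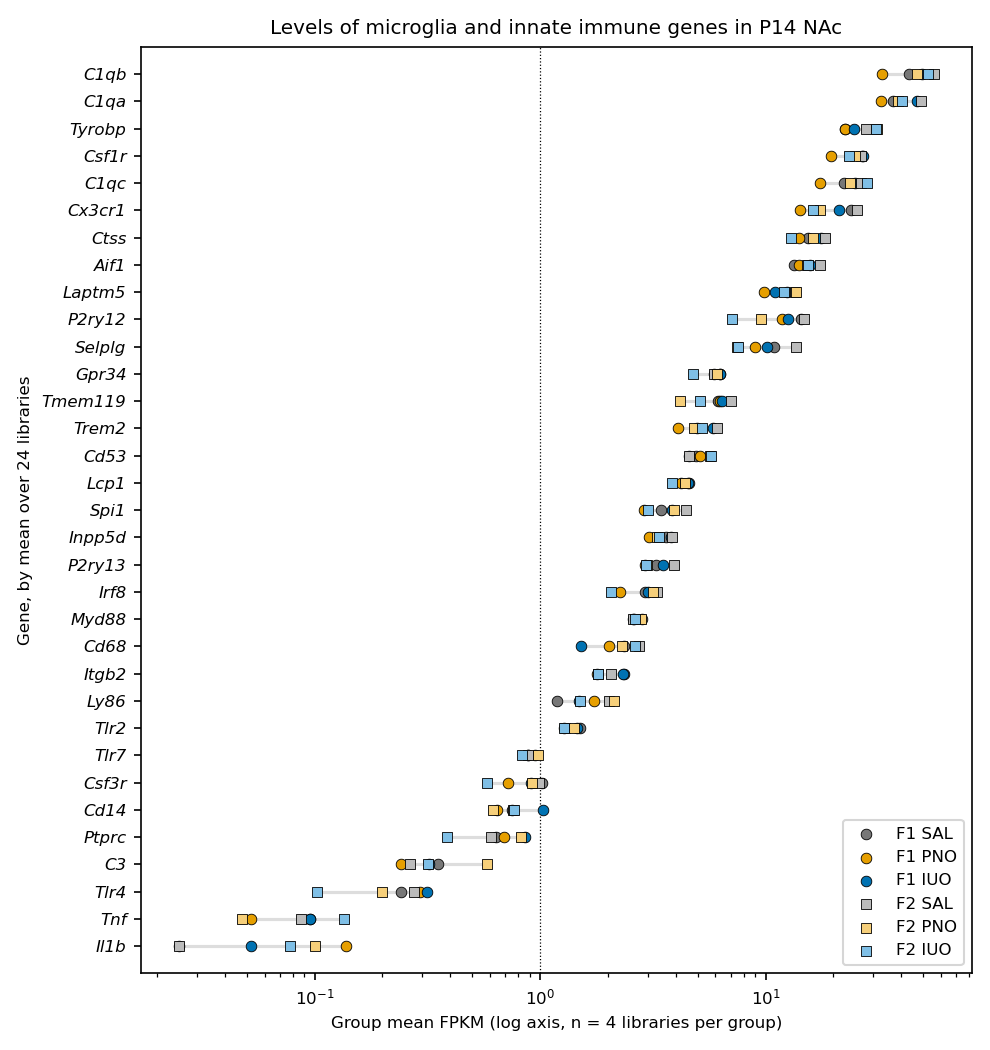
Group mean FPKM of the 33 members on a log axis, ordered by the mean over 24 libraries, with circles for F1 and squares for F2 groups and a dotted line at 1 FPKM. Means over all libraries run from 46.8 for C1qb to 0.0696 for Il1b, and the F1 PNO circle lies lowest of the 6 groups for C1qb, C1qa, Csf1r, C1qc and Cx3cr1.

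The cytokine genes were at the edge of what the values resolve. Il1b, which encodes interleukin 1β, was listed at 0 in 13 of 24 libraries and never above 0.31 FPKM. Tnf, for tumour necrosis factor, was listed at 0 in 3 libraries and reached at most 0.37, in F2 IUO replicate 1. Tlr4, the lipopolysaccharide receptor, was listed at 0 in 2 libraries and reached 0.54, whereas Myd88, the adaptor that most Toll-like receptors share, had a mean of 2.68 ± 0.485 FPKM. The read depth is unknown, so no lower limit can be attached to a listed 0.

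Markers of neighbouring cells were read in the same libraries. The 7 border macrophage rows (such as Mrc1, Lyve1 and Pf4) summed to 6.53 to 12.3 FPKM per library, and the 8 blood leukocyte rows summed to 0.06 to 2.65 with 6 of them at 0 in over 12 libraries, against 224 to 382 for the 33 members. The striatal neuron markers were present in every library at a summed 400 to 1303 FPKM, but markers of other regions varied widely. The summed thalamus markers ran from 22.9 to 241 FPKM, the hypothalamus markers from 3.99 to 262 and the choroid plexus markers from 5.22 to 12250. Summed FPKM per library ran from 535866 to 766781, and 2 libraries stood apart with the lowest upper-quartile scale factors, F2 PNO replicate 1 (0.801) and F2 IUO replicate 4 (0.847). In bulk tissue, fewer microglia and less RNA of these genes per microglial cell cannot be told apart.

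Within F1, the IUO and saline groups did not differ detectably in any member. Csf1r had a mean of 27.2 ± 1.31 FPKM (SD, n = 4) in F1 IUO and 26.7 ± 1.47 in F1 SAL, and 0 of the 32 members tested had an unadjusted limma p under 0.05, against a background of 3.91% of the 17380 genes tested. The log2 differences of the members had a median of 0.07 and ran from -0.74 (Cd68) to 0.39 (Ptprc), with 20 members higher and 12 lower, beside a median of 0.01 over all genes. Cx3cr1 was listed at 29.2, 21.6, 24.6 and 9.05 FPKM in F1 IUO replicates 1 to 4. Replicate 4 lay below all other 23 libraries, and the other 3 lay within or just above the F1 saline range of 18.7 to 28.8. At the adjusted level limma also called 0 of 32 members, with a smallest adjusted p of 0.999, and the groups did not separate for any member, against 2.54% of all genes. In the same libraries 4 of 6 hypothalamus markers were higher in F1 IUO at an unadjusted p under 0.05 (summed 43.8 to 158 against 10.4 to 57.2 FPKM). At that level an Hba-a2 hemoglobin row (48.95 ± 59.4 against 10.4 ± 11.4 FPKM) and Hbb (9.23 ± 11.3 against 1.82 ± 2.18 FPKM) were higher too.

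F1 PNO pups had lower Csf1r and Cx3cr1 than F1 saline pups. Csf1r was listed at 18.8, 18.7, 19.3 and 21.1 FPKM in F1 PNO replicates 1 to 4 and at 24.5, 27.3, 27.4 and 27.6 in F1 SAL. The groups did not overlap, and the mean was 27.1% lower in PNO, a log2 difference of -0.45 (SE 0.0840). The limma p was 0.000377 unadjusted and 0.231 adjusted, and the exact permutation p was 0.0286, the smallest that 4 against 4 can give. Cx3cr1 was listed at 15.3, 13.6, 10.7 and 17.6 FPKM in F1 PNO against 18.7, 22.6, 25.7 and 28.8 in F1 SAL. Again every PNO library lay below every saline library, with a mean 40.4% lower and a log2 difference of -0.75 (SE 0.177, limma p = 0.00207 unadjusted and 0.231 adjusted, exact permutation p = 0.0286).

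Laptm5 and C1qc were also lower in F1 PNO, but their groups overlapped. Laptm5, a lysosomal membrane protein gene, had means of 9.82 ± 0.896 and 12.5 ± 1.96 FPKM (n = 4 each, log2 difference -0.34, SE 0.132, limma p = 0.0300 unadjusted, 0.308 adjusted, exact permutation p = 0.0571). C1qc had means of 17.5 ± 1.98 and 22.3 ± 3.70 FPKM (log2 difference -0.34, SE 0.141, limma p = 0.0398 unadjusted, 0.332 adjusted, exact permutation p = 0.114). Laptm5 lost its unadjusted p under 0.05 in 5 and C1qc in 7 of the 15 other settings, mostly with a library left out. Itgb2, the β2 integrin subunit of microglia and leukocytes, was the third member whose groups did not overlap, at 1.37 to 1.96 FPKM against 2.15 to 2.57, with a limma p of 0.0516 unadjusted.

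These 4 of 32 members (12.5%) had an unadjusted p under 0.05 in F1 PNO against F1 SAL where 13.9% of the 17494 genes tested did, a share near the background. All 4 were lower, as 7.83% of all genes were at that level, and 3 of 32 did not overlap between groups against a background of 8.27%. By limma 0 of 32 members had an adjusted p under 0.05, as did 0 of all genes. The median log2 difference of the members was -0.20, with 23 lower and 9 higher, beside a median of -0.05 for all genes. By role, 6 of 8 receptors and surface proteins, both transcription factors and all 5 complement and integrin genes had lower means in PNO, whereas 4 of the 6 leukocyte membrane and cytoskeleton genes had higher means. The count was 2 without F1 PNO replicate 2, F1 SAL replicate 3 or F1 SAL replicate 4, and 8 without F1 PNO replicate 3. The shares of all genes called in those fits are not given. In the same libraries 4 of 6 thalamus markers had an unadjusted p under 0.05 and were higher in F1 PNO (median log2 difference 1.34, summed 93.7 to 241 FPKM against 22.9 to 126 in saline), and 8 of 8 striatal markers had lower means (median -0.43). At that level 3 of 6 hypothalamus markers (summed 3.99 to 12.7 against 10.4 to 57.2 FPKM) and 2 of 4 oligodendrocyte precursor markers (96.3 to 134 against 124 to 170) were lower in F1 PNO, and 0 of 6 border macrophage rows were called by limma. The part of these in the lower Csf1r and Cx3cr1 was not tested.

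**Figure D2:**
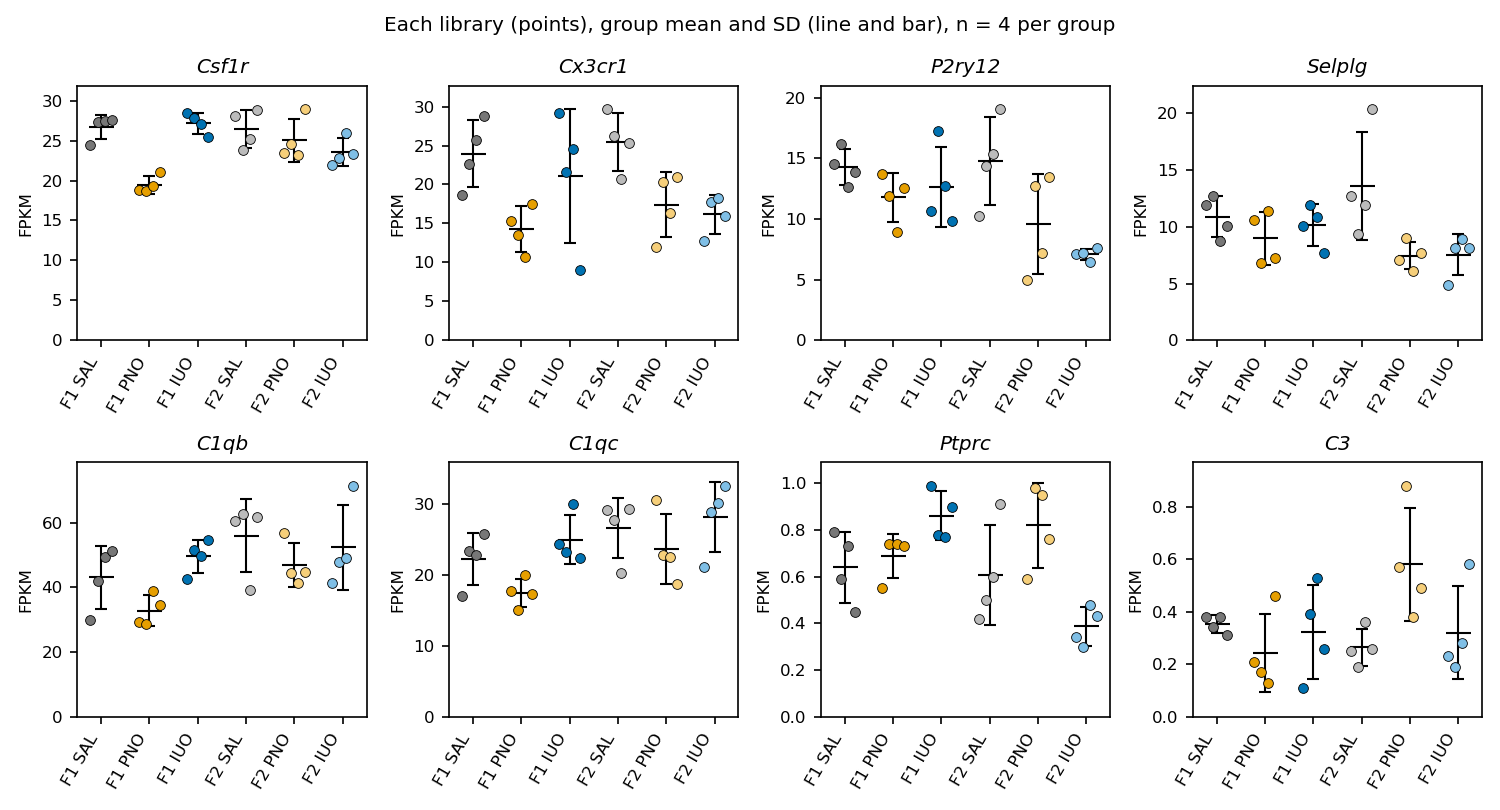
FPKM of 8 members in each of the 24 libraries (points), with the group mean and SD (line and bar, n = 4). The 4 F1 PNO points for Csf1r lie at 18.7 to 21.1 FPKM below all F1 SAL and F1 IUO points, and the 4 F2 IUO points for P2ry12 lie at 6.47 to 7.62 below all F2 SAL points.

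Against F1 IUO, the F1 PNO pups were lower in Csf1r and in the 3 C1q genes. C1qb was listed at 42.7, 51.7, 49.6 and 54.7 FPKM in F1 IUO replicates 1 to 4 and at 29.2, 28.7, 38.8 and 34.5 in F1 PNO. The groups did not overlap, and C1qb was 1.52-fold higher in IUO (log2 difference 0.60, SE 0.126, limma p = 0.000873 unadjusted, 0.1 adjusted, exact permutation p = 0.0286). C1qc was listed at 24.3, 23.2, 30.0 and 22.5 FPKM in F1 IUO and at 17.7, 15.1, 19.9 and 17.3 in F1 PNO, without overlap (log2 difference 0.51, SE 0.127, limma p = 0.00282 unadjusted, 0.132 adjusted, exact permutation p = 0.0286). Csf1r was listed at 28.5, 27.9, 27.0 and 25.4 FPKM in F1 IUO, all above the F1 PNO libraries (log2 difference 0.48, SE 0.0895, limma p = 0.000383 unadjusted, 0.0852 adjusted, exact permutation p = 0.0286).

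C1qa and Trem2 followed in the same direction with overlap. C1qa was listed at 33.4, 52.5, 42.2 and 59.9 FPKM in F1 IUO and at 29.5, 27.5, 43.0 and 30.5 in F1 PNO, where replicate 3 reached into the IUO range (log2 difference 0.51, SE 0.200, limma p = 0.0294 unadjusted, 0.248 adjusted, exact permutation p = 0.0857). Trem2, a lipid-sensing phagocytic receptor, was listed at 5.25, 5.20, 5.90 and 6.99 FPKM in F1 IUO and at 3.39, 3.30, 5.88 and 3.82 in F1 PNO, with the same replicate 3 within the IUO range (log2 difference 0.53, SE 0.207, limma p = 0.0297 unadjusted, 0.250 adjusted, exact permutation p = 0.0857). C1qa lost its unadjusted p under 0.05 in 5 and Trem2 in 6 of 15 other settings.

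The count was again no larger than the background: 5 of 31 members (16.1%) had an unadjusted p under 0.05, all higher in F1 IUO, where 16.5% of 17306 genes did and 10.1% were higher. The groups did not overlap for 5 of 31 members, these being Csf1r, C1qb, C1qc, Itgb2 and Ptprc, against 10.5% of all genes. The median log2 difference was 0.19, with 25 members higher and 6 lower, beside 0.03 over all genes. By limma 0 of 31 members had an adjusted p under 0.05, where 0.133% of all genes did. C1qb alone reached it, at an adjusted p of 0.0458, when libraries were rescaled by median ratios, and its limma adjusted p ran from there to 0.288 over the other settings. F1 PNO replicates 1 and 2 each lowered the count to 3 when left out, with the shares of all genes in those fits not given. The F1 PNO libraries serve in both F1 comparisons in which they appear, so the differences described for Csf1r rest on the same 4 low values. The region markers moved here too: 5 of 8 striatal markers were higher and 3 of 6 thalamus markers lower in F1 IUO at an unadjusted p under 0.05, 3 of 4 oligodendrocyte precursor markers and 5 of 6 hypothalamus markers were higher at that level as well, and Avp, the vasopressin gene, had a limma adjusted p of 0.0468 (39.8 ± 23.9 against 2.70 ± 1.76 FPKM). Their part was not tested.

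In F2 IUO pups, P2ry12, Cx3cr1 and Selplg were lower than in saline pups. P2ry12 was listed at 7.08, 7.21, 6.47 and 7.62 FPKM in F2 IUO replicates 1 to 4 and at 10.3, 14.4, 15.4 and 19.1 in F2 SAL. The groups did not overlap, the IUO libraries were the tightest of the 6 groups, and the mean was 52.0% lower (log2 difference -1.02, SE 0.184, limma p = 0.000292 unadjusted and 0.208 adjusted, exact permutation p = 0.0286). Cx3cr1 was listed at 12.7, 17.8, 18.2 and 15.96 FPKM in F2 IUO and at 29.7, 26.2, 20.7 and 25.3 in F2 SAL. These did not overlap either, and the mean was 36.5% lower (log2 difference -0.65, SE 0.153, limma p = 0.00184 unadjusted, 0.370 adjusted, exact permutation p = 0.0286). Selplg, which encodes the selectin ligand PSGL-1, was listed at 4.92, 8.18, 8.94 and 8.17 FPKM in F2 IUO and at 12.7, 9.41, 11.9 and 20.4 in F2 SAL. Its groups did not overlap, though F2 SAL replicate 4 stood far above the rest (log2 difference -0.82, SE 0.262, limma p = 0.0116 unadjusted, 0.538 adjusted, exact permutation p = 0.0286).

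Irf8 and Ctss were lower as well, with overlap. Irf8, a transcription factor that acts with PU.1 in microglia, was listed at 2.54, 1.43, 2.88 and 1.42 FPKM in F2 IUO and at 3.38, 4.06, 3.05 and 2.69 in F2 SAL (log2 difference -0.70, SE 0.287, limma p = 0.0363 unadjusted, 0.567 adjusted, exact permutation p = 0.0571). Ctss, cathepsin S, was listed at 12.5, 18.6, 11.4 and 9.21 FPKM in F2 IUO and at 18.6, 15.97, 15.4 and 23.3 in F2 SAL, with IUO replicate 2 inside the saline range (log2 difference -0.53, SE 0.219, limma p = 0.0381 unadjusted, 0.567 adjusted, exact permutation p = 0.0857). Irf8 lost its unadjusted p under 0.05 in 5 and Ctss in 6 of 15 other settings. Csf1r had means of 23.5 ± 1.74 and 26.5 ± 2.37 FPKM in F2 IUO and F2 SAL, a log2 difference of -0.17 (limma p = 0.143 unadjusted, exact permutation p = 0.114).

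The count in F2 IUO against F2 SAL stood above its background: 5 of 32 members (15.6%) had an unadjusted p under 0.05 where 8.49% of 17097 genes did. All 5 were lower, against 4.97% of all genes, and 4 of 32 (P2ry12, Cx3cr1, Selplg and Csf3r) did not overlap against 5.11%. The median log2 difference of the members was -0.23, with 25 lower and 7 higher, beside -0.08 over all genes. All 8 receptors and surface proteins had lower means in F2 IUO (median -0.57), both transcription factors did (median -0.65), the 5 phagocytic and lysosomal genes had a median of -0.17 and the 6 sensors tested a median of -0.04. By limma 0 members reached an adjusted p under 0.05, as did 0 of all genes. Without F2 SAL replicate 1 the count was 3, against 5.02% of all genes. Without F2 IUO replicate 4, which stood apart, it was 6 (share of all genes not given). P2ry12, Cx3cr1 and Selplg kept an unadjusted p under 0.05 in all 15 settings. In these libraries 8 of 8 striatal markers had lower means in IUO (median -0.51, 2 at an unadjusted p under 0.05, summed 400 to 987 against 757 to 1006 FPKM). Of the oligodendrocyte precursor markers 2 of 4 were lower at that level (summed 92.5 to 168 against 138 to 185), and both Hba-a2 hemoglobin rows were higher. Of the endothelium and pericyte markers 4 of 4 had lower means (median -0.37, summed 26.2 to 44.4 against 41.4 to 50.03 FPKM), with Pdgfrb at that level (3.15 ± 0.686 against 5.75 ± 1.29 FPKM). Of the border macrophage rows 1 of 6 was lower at that level, Cd163 (0.065 ± 0.0580 against 0.388 ± 0.125 FPKM). Summed neuron markers were higher, at 1575 to 1804 FPKM in F2 IUO against 1252 to 1456 in F2 SAL. Their mean log2 levels overlapped (7.77 to 8.05 against 7.63 to 7.81). Among them Snap25 was higher at an unadjusted p under 0.05 (539 ± 75.9 against 338 ± 68.9 FPKM). The part of all these markers in the lower receptors was not tested.

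**Figure D3:**
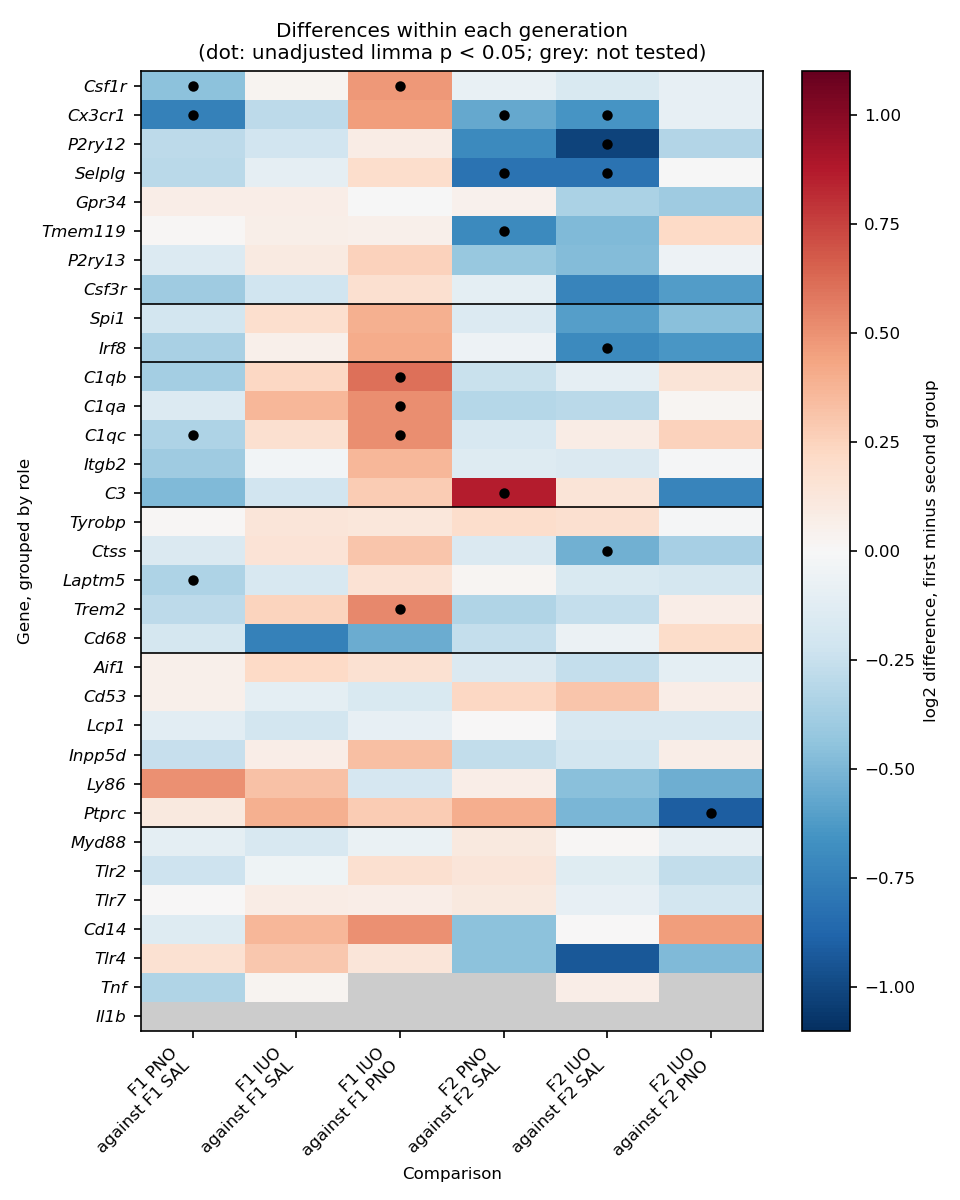
Log2 differences of the 33 members in the 6 comparisons within a generation, blue for lower and red for higher in the first group, grouped by role, with a dot where the unadjusted limma p was under 0.05. From left to right the dots number 4, 0 and 5 in the F1 columns and 4, 5 and 1 in the F2 columns, and the lowest value is -1.02 for P2ry12 in F2 IUO against F2 SAL.

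F2 PNO pups were lower than F2 saline pups in Selplg, Cx3cr1 and Tmem119 and higher in C3. Selplg was listed at 7.10, 9.02, 6.09 and 7.69 FPKM in F2 PNO replicates 1 to 4, all below F2 SAL (log2 difference -0.81, SE 0.237, limma p = 0.00735 unadjusted, 0.374 adjusted, exact permutation p = 0.0286). Cx3cr1 was listed at 12.02, 20.3, 16.3 and 21.0 FPKM in F2 PNO, so that replicate 4 lay just above the lowest saline library at 20.7 (log2 difference -0.57, SE 0.195, limma p = 0.0169 unadjusted, 0.399 adjusted, exact permutation p = 0.0571). Tmem119, a transmembrane protein gene used to mark microglia, was listed at 3.75, 5.86, 3.73 and 3.39 FPKM in F2 PNO and at 6.27, 4.63, 6.33 and 10.9 in F2 SAL (log2 difference -0.70, SE 0.283, limma p = 0.0346 unadjusted, 0.439 adjusted, exact permutation p = 0.0571).

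C3, the central component of complement, was the member that went the other way. It was listed at 0.57, 0.88, 0.38 and 0.49 FPKM in F2 PNO replicates 1 to 4 and at 0.25, 0.19, 0.36 and 0.26 in F2 SAL. The groups did not overlap, though F2 PNO replicate 3 lay just above F2 SAL replicate 3, and all values were under 1 FPKM (log2 difference 0.87, SE 0.347, limma p = 0.0334 unadjusted, 0.439 adjusted, exact permutation p = 0.0286). The log2 difference was 0.31 with a pseudocount of 1. Of these 4 members, Tmem119 lost its unadjusted p under 0.05 in 8 of 15 other settings, C3 in 6 of 14, Cx3cr1 in 1 of 15 and Selplg in 0 of 15.

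In F2 PNO against F2 SAL, 4 of 31 members (12.9%) had an unadjusted p under 0.05, near the background of 10.8% of 17367 genes. The 3 lower ones compare with 6.83% of all genes that were lower at that level and the 1 higher with 3.97%. Selplg and C3 were the 2 of 31 whose groups did not overlap, against 7.01% of all genes. The median log2 difference was -0.15, with 20 members lower and 11 higher, beside -0.08 over all genes. The 8 receptors and surface proteins had a median of -0.49, with 7 lower, and the 6 leukocyte membrane and cytoskeleton genes one of 0.04. By limma 0 members reached an adjusted p under 0.05, against 0.00576% of all genes. The count was 2 without F2 PNO replicate 1, F2 SAL replicate 1 or F2 SAL replicate 4, with the shares of all genes in those fits not given. F2 PNO replicate 1, which stood apart, held the lowest P2ry12 (4.97 FPKM) and Cx3cr1 of its group. The F2 saline libraries are shared with the comparison of IUO, so the lower Cx3cr1 and Selplg of the 2 exposed groups are not independent of each other. In F2 PNO both Hba-a2 rows were higher and 2 of 4 oligodendrocyte precursor markers lower at an unadjusted p under 0.05. Of the neuron markers Rbfox3 was lower at that level (43.6 ± 7.22 against 59.5 ± 3.02 FPKM). The astrocyte marker Gja1 (109 ± 8.28 against 90.9 ± 3.32 FPKM) and the hypothalamus marker Pmch (5.11 ± 7.4 against 0.48 ± 0.382 FPKM) were higher. Summed neuron markers ran from 944 to 1427 FPKM in F2 PNO against 1252 to 1456 in F2 SAL. The part of these markers was not tested.

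Between the 2 exposed groups of F2, Ptprc alone had an unadjusted p under 0.05. Ptprc, which encodes the leukocyte common antigen CD45, was listed at 0.34, 0.30, 0.48 and 0.43 FPKM in F2 IUO and at 0.59, 0.98, 0.95 and 0.76 in F2 PNO. The groups did not overlap, and the mean was 52.7% lower in IUO (log2 difference -0.91, SE 0.346, limma p = 0.0267 unadjusted, 0.643 adjusted, exact permutation p = 0.0286). It lost its unadjusted p under 0.05 in 5 of 15 other settings, and its log2 difference was -0.39 with a pseudocount of 1. It was the 1 of 31 members (3.23%) with an unadjusted p under 0.05, where 7.07% of 17090 genes had one and 2.48% were lower, and the 1 that did not overlap, against 4.74% of all genes. P2ry12 had means of 7.10 ± 0.476 and 9.60 ± 4.16 FPKM in F2 IUO and F2 PNO, where PNO replicate 1 (4.97) lay below every IUO library, replicate 3 (7.22) within the IUO range of 6.47 to 7.62, and replicates 2 and 4 (12.7 and 13.5) within the saline range. The log2 difference was -0.32 (limma p = 0.323 unadjusted, exact permutation p = 0.343). The count was 3 with F2 PNO replicate 1 and F2 IUO replicate 4 both left out, and 0 without F2 IUO replicate 1, F2 PNO replicate 2 or F2 PNO replicate 3. The shares of all genes called in those fits are not given. Summed neuron markers were higher in F2 IUO (1575 to 1804 against 944 to 1427 FPKM). At an unadjusted p under 0.05, the neuron markers Snap25 and Stmn2 and the hypothalamus marker Agrp were higher in F2 IUO. The astrocyte marker Gja1 and the blood leukocyte gene Camp were lower at that level. The part of these markers was not tested.

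Each treatment was also compared between generations. In F2 PNO against F1 PNO, 8 of 31 members (25.8%) had an unadjusted p under 0.05 where 4.76% of 17370 genes did. The 7 higher ones (C1qb, Laptm5, Csf1r, C3, C1qc, Spi1 and Tyrobp) compare with 2.13% of all genes and the 1 lower (Tmem119) with 2.63%. C1qb was listed at 56.9, 44.5, 41.4 and 44.7 FPKM in F2 PNO, all above the F1 PNO libraries (log2 difference 0.52, SE 0.142, limma p = 0.00537 unadjusted, 0.838 adjusted, exact permutation p = 0.0286). Csf1r was listed at 23.5, 24.6, 23.2 and 28.9 FPKM in F2 PNO, again all above F1 PNO (log2 difference 0.36, SE 0.113, limma p = 0.0112 unadjusted, 0.908 adjusted, exact permutation p = 0.0286). Laptm5 was listed at 14.5, 11.3, 14.0 and 15.0 FPKM in F2 PNO, above 9.16, 9.18, 11.1 and 9.86 in F1 PNO (log2 difference 0.47, SE 0.138, limma p = 0.00739 unadjusted, 0.851 adjusted, exact permutation p = 0.0286).

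Spi1, the gene of PU.1 itself, was listed at 3.95, 3.75, 3.91 and 4.15 FPKM in F2 PNO and at 2.49, 2.78, 2.84 and 3.44 in F1 PNO, without overlap (log2 difference 0.44, SE 0.176, limma p = 0.0319 unadjusted, 0.948 adjusted, exact permutation p = 0.0286). In all, 4 of 31 members did not overlap (C1qb, Laptm5, Csf1r and Spi1), against 3.34% of all genes, and the median log2 difference was 0.20 beside -0.06 over all genes. The low values of the F1 PNO libraries enter here again. Tyrobp lost its unadjusted p under 0.05 in 10 of 15 other settings, Spi1 and Tmem119 in 7 of 15 each, C1qc in 5 of 15 and C3 in 4 of 14, where its log2 difference of 1.03 went down to 0.34 with a pseudocount of 1. C1qb, Laptm5 and Csf1r lost it in none. The count was 3 without F1 PNO replicate 1, 4 without F1 PNO replicate 2 and 5 without F2 PNO replicate 3. The shares of all genes called in those fits are not given, so these counts cannot be set against a background. By limma 0 members had an adjusted p under 0.05, against 0.0288% of all genes. The thalamus markers were lower in F2 PNO than in F1 PNO (6 of 6 means, 2 at an unadjusted p under 0.05, median -0.90) and 3 of 8 striatal markers higher at that level. Their part was not tested.

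In F2 IUO against F1 IUO, P2ry12 and Ptprc were lower and Cd68 higher. P2ry12 was listed at 10.7, 17.2, 12.7 and 9.85 FPKM in F1 IUO, all above F2 IUO (log2 difference -0.79, SE 0.189, limma p = 0.00195 unadjusted, 0.222 adjusted, exact permutation p = 0.0286). Ptprc was listed at 0.99, 0.78, 0.77 and 0.90 FPKM in F1 IUO, also without overlap (log2 difference -0.99, SE 0.342, limma p = 0.0164 unadjusted, 0.250 adjusted, exact permutation p = 0.0286). Cd68, a lysosomal glycoprotein gene that marks phagocytic cells, was listed at 2.68, 3.01, 2.53 and 2.33 FPKM in F2 IUO and at 0.73, 2.28, 2.35 and 0.73 in F1 IUO, where replicates 1 and 4 were low (log2 difference 0.95, SE 0.418, limma p = 0.0474 unadjusted, 0.327 adjusted, exact permutation p = 0.0571). Cd68 lost its unadjusted p under 0.05 in 7 of 15 other settings, and the log2 difference of Ptprc was -0.42 with a pseudocount of 1. These were 3 of 32 members, against a background of 15% of 16916 genes (9.65% lower and 5.35% higher), and by limma 0 had an adjusted p under 0.05. Of the 32 members 2 did not overlap, against 10.7% of all genes. The striatal markers were lower in F2 IUO here as well (8 of 8 means, 4 at an unadjusted p under 0.05, median -0.64). At that level 3 of 4 oligodendrocyte precursor markers (Pdgfra, Cspg4 and Gpr17, list median -0.63), 3 of 4 endothelium and pericyte markers (Pdgfrb, Flt1 and Rgs5, list median -0.57) and 1 of 6 thalamus markers were lower too. Summed neuron markers were higher in F2 IUO (1575 to 1804 against 1183 to 1422 FPKM), with Snap25 and Stmn2 higher at that level. Their part was not tested.

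Between the saline groups, Ly86 was the only one of 32 members with an unadjusted p under 0.05, against 8.48% of 17497 genes, with 3.78% higher. Ly86, which encodes MD-1, a partner of the Toll-like receptor relative RP105, was listed at 1.70, 2.47, 1.88 and 2.03 FPKM in F2 SAL and at 1.18, 1.34, 0.82 and 1.41 in F1 SAL, without overlap (log2 difference 0.73, SE 0.223, limma p = 0.00891 unadjusted, 0.569 adjusted, exact permutation p = 0.0286). It was the only member without overlap, where 4.98% of all genes had none, and by limma 0 members had an adjusted p under 0.05, against 0.0343% of all genes. Without F2 SAL replicate 3, which held the lowest C1qb (39.1 FPKM) and Tyrobp (16.1 FPKM) of its group, the count was 6, all higher in F2, against 11.0% of all genes. Of the receptors, Csf1r had 26.7 ± 1.47 and 26.5 ± 2.37, Cx3cr1 23.95 ± 4.33 and 25.5 ± 3.71 and P2ry12 14.3 ± 1.47 and 14.8 ± 3.61 FPKM in F1 SAL and F2 SAL. Selplg had 10.9 ± 1.80 and 13.6 ± 4.74, Tmem119 6.17 ± 1.07 and 7.03 ± 2.70 and P2ry13 3.28 ± 0.564 and 3.92 ± 0.494 FPKM.

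Whether a treatment difference itself changed between generations was tested as an interaction over 16 libraries. For IUO against SAL, 5 of 32 members (15.6%) had an unadjusted p under 0.05, all with a more negative difference in F2, where 5.17% of 17102 genes had one and 3.61% were in that direction. P2ry12 led, with a log2 difference of -0.21 in F1 and -1.02 in F2 and a change of -0.81 (SE 0.261, limma adjusted p = 0.915). In the same direction, Ptprc (-0.90), Irf8 (-0.75), Selplg (-0.71) and Ctss (-0.68) followed. For PNO against SAL the 2 members were Csf1r, lower by 0.45 on the log2 scale in F1 and by 0.08 in F2 (change 0.37, SE 0.137, limma adjusted p = 0.9998), and C3 (change 1.35, SE 0.452, limma adjusted p = 0.9998), against 3.9% of 17268 genes, with 1.46% of all genes in that direction. For IUO against PNO they were 4 of 31, Csf1r (-0.57, SE 0.140, limma adjusted p = 0.597), Ptprc (-1.19), Irf8 (-1.05) and Spi1 (-0.85), all more negative in F2, against 5.87% of 17032 genes with 2.77% in that direction. By limma 0 members had an adjusted p under 0.05 in any of these 3 tests, as did 0 of all genes in each.

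The members not yet described stayed within overlapping ranges in all or nearly all comparisons. Among the receptors, P2ry13, a further ADP receptor, had group means of 2.91 to 3.92 FPKM, and Gpr34, which binds lysophosphatidylserine, had means of 5.91 to 6.30 in 5 groups and of 4.78 ± 1.37 in F2 IUO. Csf3r, the receptor for granulocyte colony stimulating factor, had means of 0.583 ± 0.234 FPKM in F2 IUO and 0.985 ± 0.0597 in F2 SAL, without overlap (limma p = 0.0513 unadjusted, exact permutation p = 0.0286). Aif1, which encodes the microglial marker Iba1, had means of 13.4 to 17.5 FPKM. Inpp5d, for the phosphatase SHIP1 (3.03 to 3.86), Lcp1, for the actin-bundling plastin of leukocytes (3.85 to 4.57), and the tetraspanin gene Cd53 (4.58 to 5.75) had no unadjusted limma p under 0.05 in any comparison. Of the sensors, Cd14, a co-receptor for lipopolysaccharide, had means of 0.620 to 1.03 FPKM, Tlr2 of 1.27 to 1.51, Tlr7, which reads single-stranded RNA, of 0.833 to 0.975 and Myd88 of 2.58 to 2.83. No sensor had an unadjusted limma p under 0.05 in any of the 9 comparisons of groups, and the smallest adjusted p among the members tested was 0.0852, for Csf1r.

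The members were then gathered into a homeostatic set of 7 receptors and surface proteins (Cx3cr1, P2ry12, P2ry13, Tmem119, Gpr34, Csf1r and Selplg) and an activation set of 9 genes (Trem2, Tyrobp, Cd68, C3, Cd14, Tlr2, Myd88, Il1b and Tnf), each as the mean log2(FPKM + 0.1) per library. These levels are given as a description with no test. The homeostatic set had group means of 3.37 ± 0.112, 3.10 ± 0.0958 and 3.32 ± 0.239 in F1 SAL, PNO and IUO, and of 3.47 ± 0.201, 3.01 ± 0.268 and 2.91 ± 0.265 in F2 SAL, PNO and IUO. The F1 PNO libraries (2.99 to 3.18) lay below the F1 SAL libraries (3.23 to 3.50), and the F2 PNO (2.72 to 3.25) and F2 IUO libraries (2.54 to 3.16) lay below the F2 SAL libraries (3.31 to 3.76).

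The activation set, which includes Il1b and Tnf near 0 FPKM, had overlapping ranges in all groups, which is a description and no test. Its means were 0.36 ± 0.142, 0.27 ± 0.0884 and 0.34 ± 0.247 in F1 SAL, PNO and IUO and 0.39 ± 0.145, 0.43 ± 0.219 and 0.41 ± 0.305 in F2 SAL, PNO and IUO. Among its 8 members tested in F2 IUO against F2 SAL, 5 were higher and 3 lower with a median log2 difference of 0.01, beside a median of -0.48 for the 7 homeostatic genes, all lower. In F2 PNO against F2 SAL the medians were 0.11 for 7 activation genes tested and -0.57 for the 7 homeostatic genes. The activation set minus the homeostatic set, on the log2 scale, ran from -3.14 to -2.93 in F1 SAL, from -2.85 to -2.79 in F1 PNO and from -3.01 to -2.94 in F1 IUO, so that the F1 PNO libraries lay above those of both other F1 groups. In F2 it ran from -3.48 to -2.73 in SAL, from -2.93 to -2.21 in PNO and from -2.92 to -1.88 in IUO, so the F2 exposed libraries spread upward from the saline range and overlapped with it.

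**Figure D4:**
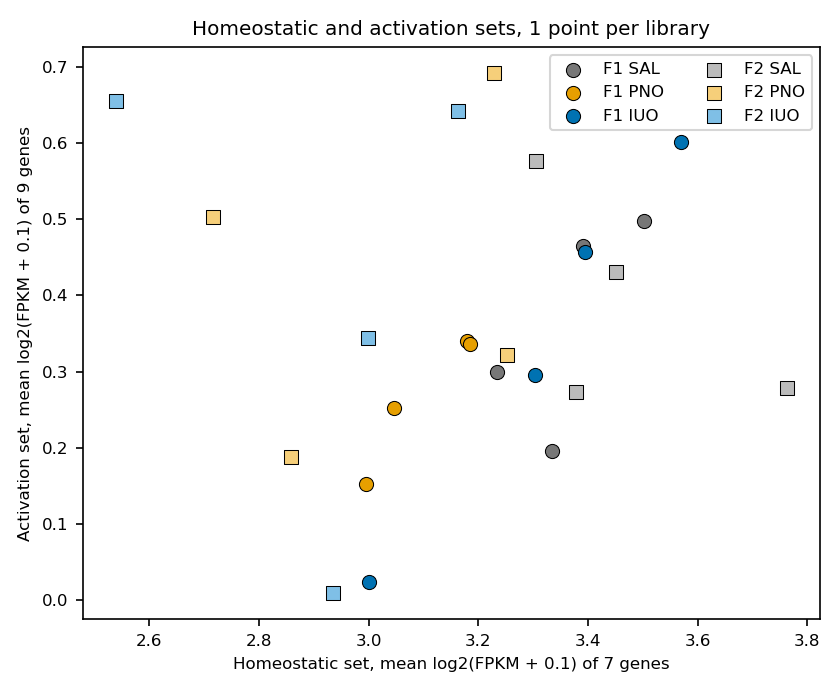
Mean log2(FPKM + 0.1) of the homeostatic set (x axis, 7 genes) and the activation set (y axis, 9 genes) in each of the 24 libraries, circles for F1 and squares for F2. The F2 IUO squares run from 2.54 to 3.16 on the x axis, left of the F2 SAL squares at 3.31 to 3.76, while on the y axis all groups overlap.

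Across the 24 libraries, with each gene centred on its group means, the C1q genes and Laptm5 moved together. Of the other phagocytic and lysosomal genes, Tyrobp and Trem2 had a Pearson r to C1qb of 0.68 and 0.63. Ctss and Cd68 had one of only 0.13 and 0.06. Correlations are given as a description, since tissue content varied between libraries and the read depth is unknown. C1qb and C1qa had a Pearson r of 0.89 (Spearman rho 0.89), C1qb and Laptm5 one of 0.82 (rho 0.81), C1qa and Aif1 one of 0.79 (rho 0.70) and C1qb and C1qc one of 0.77 (rho 0.74), with values of 0.84, 0.76, 0.73 and 0.66 without the 2 libraries farthest from the median. Among the receptors the closest pair was Selplg and Tmem119 (r 0.74, rho 0.67). Over all 300 pairs of the 25 members at a mean FPKM of at least 1, the median r was only 0.09, 30 pairs had an r over 0.5 and 8 an r under -0.5. Each member was also set against the mean of the others: C1qb (0.74), Laptm5 (0.73) and C1qa (0.69) had the highest r, and Cx3cr1 (0.21), P2ry12 (0.17) and Irf8 (-0.21) followed the others weakly or not at all. The homeostatic and activation sets had an r of 0.23 (rho 0.26, and 0.30 without the 2 farthest libraries).

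**Figure D5:**
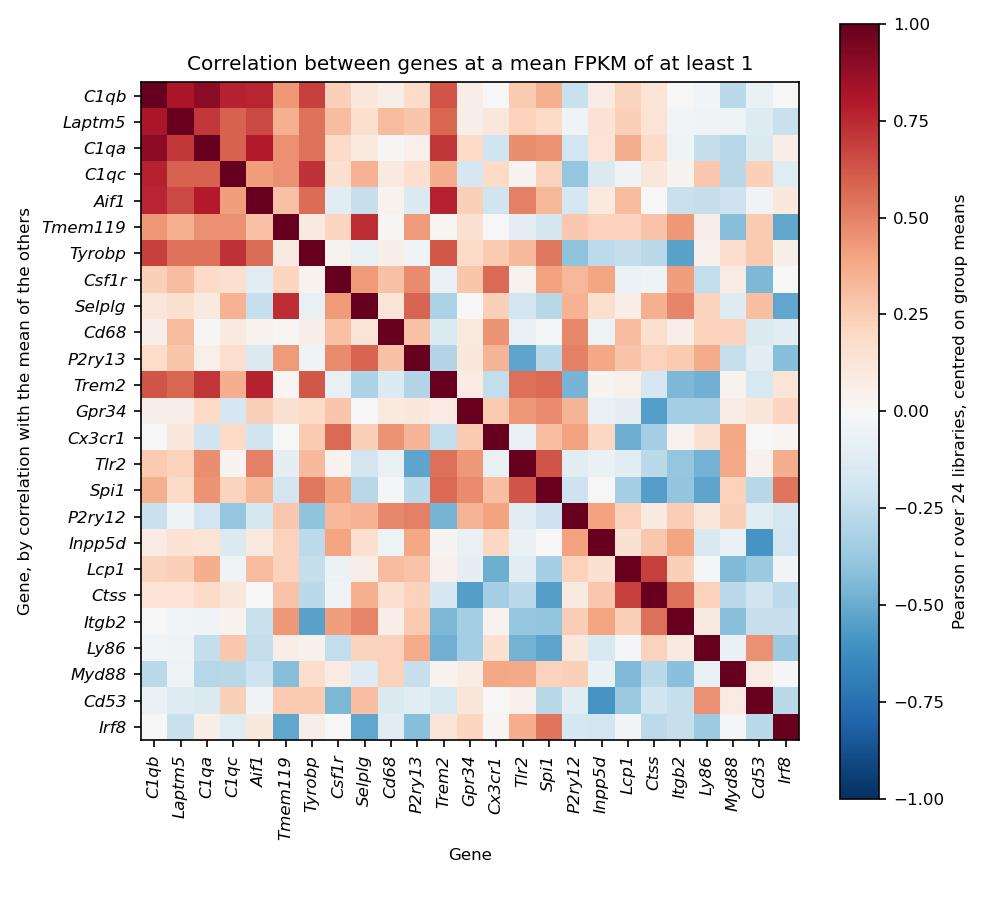
Pearson r between the 25 members at a mean FPKM of at least 1 over 24 libraries centred on group means, ordered by the r of each gene with the mean of the others. The red block in the upper left corner holds C1qb, Laptm5, C1qa, C1qc and Aif1, with an r of 0.89 between C1qb and C1qa, while P2ry12, Cx3cr1 and Irf8 stand outside it.

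Outside the list, the 10 genes whose centred levels most resembled the mean of the 25 members had an r of 0.69 to 0.77 over the 24 libraries: Zcchc4, Chi3l1, Slco2b1, Zfp444, Dhrs7, Pld4, RT1-DMb, Pradc1, P2ry6 and Eif4ebp1. Of the 13651 other genes at a mean FPKM of at least 1, 1.66% had an r over 0.5. P2ry6, a UDP receptor of phagocytes, had an r of 0.69 (rho 0.58), which was 0.53 without the 2 libraries farthest from the median, and Slco2b1, an organic anion transporter, had one of 0.76 (rho 0.73).

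The rest of the pathway was read from lists chosen by name. Of 20 further microglia genes tested, 1 was called at an unadjusted p under 0.05 in F1 PNO against F1 SAL (Mertk, a phagocytic receptor kinase, 3.54 ± 0.326 against 4.73 ± 0.489 FPKM), with 17 of 20 lower and a median log2 difference of -0.12. Over all genes 13.9% were called there. In F2 IUO against F2 SAL 2 of 20 were lower at that level, Siglec5 (2.10 ± 0.742 against 3.57 ± 0.626 FPKM) and the transcription factor Maf (6.19 ± 1.16 against 8.82 ± 1.99), with a median of -0.22. Over all genes 8.49% were called in that comparison and 4.97% were lower. Maf was also higher in F2 SAL than in F1 SAL (5.985 ± 1.90 FPKM) at an unadjusted limma p under 0.05, where 8.48% of all genes were called. In F2 PNO against F2 SAL 2 were lower, Siglec5 (1.53 FPKM) and Unc93b1, a chaperone of endosomal Toll-like receptors (4.09 against 5.44), and 2 were higher, the Fc receptor Fcgr2b (2.14 against 1.08) and Hpgds (1.503 against 0.853). Of all genes 6.83% were lower and 3.97% higher at that level.

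Genes listed as marks of disease-associated microglia were read in bulk tissue, where the cells they come from cannot be told. Of 12 tested in F1 PNO against F1 SAL only Igf1 was called, at 5.48 ± 2.04 against 3.17 ± 0.270 FPKM, where 13.9% of all genes were. Of 13 tested in F2 IUO against F2 SAL none had an unadjusted limma p under 0.05, where 8.49% of all genes had one, and the median was 0.10. In F2 PNO against F2 SAL Cd9 was higher (63.05 ± 17.7 against 43.2 ± 7.79 FPKM) and Axl lower (8.995 ± 1.73 against 11.7 ± 0.504) at that level, where 10.8% of all genes were called. In Toll-like receptor and NF-kB signalling, 5 of 22 genes were lower in F1 PNO than in F1 SAL at an unadjusted p under 0.05, where 7.83% of all genes were, among them Tnfaip3, an inhibitor of NF-kB (1.46 ± 0.273 against 2.51 ± 0.621 FPKM), and the kinase gene Irak1 (28.1 ± 2.47 against 34.5 ± 2.62). In F2 IUO and in F2 PNO against F2 SAL 0 of 22 were called by limma at that level, and the smallest adjusted p was 0.627 and 0.466. Of 16 interferon response genes, 0 were called in F1 PNO against F1 SAL (smallest limma adjusted p 0.372), and 1 in F2 IUO against F2 SAL, Ddx58, the viral RNA sensor RIG-I, at 0.135 ± 0.139 against 0.693 ± 0.226 FPKM. Over all genes 13.9% and 8.49% were called in these comparisons.

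Ligands and brakes of microglia were read last. Cx3cl1, the ligand of Cx3cr1, had a mean of 211 FPKM in F2 PNO against 263 in F2 SAL (log2 difference -0.33, limma adjusted p = 0.408), and Sirpa, the receptor of the signal CD47, of 58.6 against 73.7 (log2 difference -0.34). Tgfbr2, a receptor chain for the TGF-β that maintains microglial identity, was at 3.72 ± 1.25 FPKM in F1 IUO against 2.23 ± 0.303 in F1 SAL. In F2 IUO against F2 SAL 8 of 10 of these genes had lower means, with a median of -0.19 and none called (smallest limma adjusted p 0.591).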

How the data were processed

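RNA-Seq was read from the NAc of 24 P14 rat pups, 4 libraries in each of 6 groups taken from the labels. The authors made the FPKM values: per the labels and the methods, reads were aligned with HISAT2, sorted with SAMtools, and assembled with StringTie, which then gave values over 1 merged transcript set, and edgeR is named for their own tests. Versions and the genome build are not given in the sources used here. The deposited files hold FPKM per gene, from which read depth cannot be recovered, so a count model was not run and the precision of a single value is unknown.

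Values were taken as log2(FPKM + 0.1) and fitted with limma 3.58.1 in R 4.3.3 (a trend in the prior variance, only the groups compared). A gene was tested where 4 of the 8 libraries, or 8 of the 16 of an interaction, reached 0.1 FPKM, with Benjamini-Hochberg adjustment over all genes tested. A log2 difference on this scale understates the change of a low gene. Il1b did not reach the minimum in any comparison, nor Tnf in 4 of 9. Exact permutation tests (two-sided) compared the mean log2(FPKM + 0.1) of 4 against 4 libraries, where the smallest possible p is 0.0286. Spearman correlations used scipy 1.17.1. All 33 members were accounted for by role. Values per library were planned for Csf1r, Cx3cr1 and P2ry12 and for up to 5 members with the smallest unadjusted p under 0.05 in a comparison. Some were given as means instead, such as Laptm5 and C1qc in F1 PNO against F1 SAL. In F2 PNO against F1 PNO, C3 and C1qc were not listed per library, whereas Spi1, the gene of PU.1, was. Of the other lists mostly up to 3 genes with the smallest p were named. The members and lists were chosen with earlier results of these data known. The fit was tested on simulated data. Of the files' 24 libraries none held values identical to another. Promoters came from the RefSeq table of GRCr8, and Python 3.11.15 with pandas 2.3.3 and matplotlib 3.10.9 was used. Alternatives were another pseudocount, other minimum levels, upper-quartile and median-ratio rescaling, 1 fit of all libraries, a replicate block and each library left out.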

Additional observations from a re-analysis of the deposited data

Results flagged for a closer look

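In 14 of 198 groups of 4 libraries (33 members in 6 groups), the highest or lowest library stood apart, judged by Dixon's test at the 95% level on the gap to the nearest library over the range of the 4. Chance gives about 1 in 20 such groups, or 9.9 of 198. Among the 25 members at a mean FPKM of at least 1 there were 8.

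In the saline groups, F1 SAL replicate 1 was low in Csf1r (24.51 FPKM, the next at 27.33, gap over range 0.922). F2 SAL replicate 3 was low in C1qb (39.05, the next at 60.64, 0.918) and in C1qc (20.34, the next at 27.78, 0.833). In F1 PNO, replicate 2 was low in Itgb2 (1.37, the next at 1.91, 0.915), and replicate 1 was low in Ptprc (0.55, the next at 0.73, 0.947) and high in Cd53 (7.16, the next at 4.55, 0.942). In F2 PNO, replicate 2 was high in Tmem119 (5.86, the next at 3.75, 0.854) and replicate 1 was high in Tnf (0.15, the next at 0.02, 0.867). In F2 IUO, replicate 2 was high in Ly86 (2.49, the next at 1.28, 0.846) and replicate 1 in Myd88 (3.77, the next at 2.29, 0.967).

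The remaining 4 groups were of Il1b, where most libraries were listed at 0. F1 SAL replicate 2 (0.10 FPKM) and F2 SAL replicate 2 (0.10) stood above 3 libraries listed at 0 (gap over range 1.0 each), as did F2 IUO replicate 4 (0.31, 1.0), and F1 IUO replicate 2 (0.18) stood above the next at 0.03 (0.833).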

How the results depend on the processing

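All 31 pairs of a member and a comparison with an unadjusted p under 0.05 kept their direction in every setting tried, and 15 stayed under 0.05 in all of them. The smallest limma adjusted p over all pairs and settings was 0.0458, for C1qb in F1 IUO against F1 PNO with median-ratio rescaling, which made 1 member past the adjusted threshold there against 0. The count of members at an unadjusted limma p under 0.05 moved by over 1.5 times as follows. In F1 IUO against F1 SAL it was 1 in place of 0 both in 1 fit of all 24 libraries and with the replicate block. In F2 IUO against F2 PNO it was 0 in place of 1 at a minimum of 1 FPKM and with the replicate block, 2 with median-ratio rescaling, 4 in 1 fit of all 24 libraries, and 3 with F2 PNO replicate 1 and F2 IUO replicate 4 both left out, an alternative added after seeing the data. In F2 IUO against F1 IUO it was 8 in place of 3 in 1 fit of all libraries, and in F2 PNO against F1 PNO 5 in place of 8 with the replicate block. The shares of all genes called in these settings are not given beside the counts. Whether the members moved more than all genes cannot be read from them, and the cause of these moves was not tested.

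With single libraries left out the counts ran from 0 to 1 in F1 IUO against F1 SAL, 2 to 8 in F1 PNO against F1 SAL, 3 to 7 in F1 IUO against F1 PNO, 3 to 7 in F2 IUO against F2 SAL, 2 to 6 in F2 PNO against F2 SAL, 0 to 3 in F2 IUO against F2 PNO, 1 to 6 in F2 SAL against F1 SAL, 2 to 4 in F2 IUO against F1 IUO and 3 to 7 in F2 PNO against F1 PNO. These counts also stand without the shares of all genes called in the same fits. The adjusted counts stayed at 0, as did those of the interactions, for which leaving out libraries was added after seeing the data. The replicate numbers did not pair the samples: libraries of the same number had correlations of -0.33 to 0.20 in their deviations from the group means, and 0 to 2 of 4 libraries matched best with their own number.

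Upper-quartile rescaling changed the share of lower genes among those called from 50.5% to 61.7% in F1 IUO against F1 SAL, 38.9% to 55.4% in F1 IUO against F1 PNO, 63.3% to 50.03% in F2 PNO against F2 SAL (52.0% with median ratios), 64.3% to 42.4% in F2 IUO against F1 IUO and 55.3% to 44.6% in F2 PNO against F1 PNO. Smaller moves took the lower genes from over to under 50% in F1 PNO against F1 SAL (56.2% to 48.3%), F2 IUO against F2 SAL (58.5% to 48.6%) and F2 SAL against F1 SAL (55.4% to 49.6%). It moved the median of all genes by over 0.1 in F2 IUO against F1 IUO, from -0.09 to 0.02, where the members went from 23 lower and 9 higher to 20 and 12. FPKM gives no depth, 4 pups per group with litter and sex not analysed limit every test, and levels under 0.1 FPKM (Il1b, Tnf) cannot be compared.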

Other observations

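Some immune genes outside the members also differed between groups at an unadjusted p under 0.05. Cd200r1, which encodes the receptor for the neuronal brake CD200, was at 0.455 ± 0.165 FPKM (SD, n = 4) in F1 PNO against 0.0675 ± 0.0499 in F1 SAL (log2 difference 1.73, SE 0.394, limma adjusted p = 0.231). The F1 SAL mean was under 0.1 FPKM, so the size of this difference is not resolved. Ddx58 was at 0.713 ± 0.418 FPKM in F2 PNO against 0.135 ± 0.139 in F2 IUO (log2 difference of IUO minus PNO -1.82, limma adjusted p = 0.593). Tgfbr2 was at 1.82 ± 0.410 FPKM in F2 IUO against 3.72 ± 1.25 in F1 IUO (log2 difference -0.97, limma adjusted p = 0.236). Unc93b1 was at 5.44 ± 0.512 FPKM in F2 SAL against 3.86 ± 0.347 in F1 SAL (log2 difference 0.49, limma adjusted p = 0.569). None of these passed the adjusted threshold. They are picked examples, and over all genes 13.9%, 7.07%, 15% and 8.48% were called at the unadjusted level in these comparisons, in the same order.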
